A study of Mus musculus with 6 samples.

Results

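The genes examined here were the kinases, phosphatases and subunits of the pyruvate dehydrogenase (PDH) complex in mouse muscle. They were found by gene symbol in the count table as the kinases *Pdk1*, *Pdk2*, *Pdk3* and *Pdk4*, the phosphatases *Pdp1* and *Pdp2*, and the subunit genes *Pdha1*, *Pdhb*, *Dlat* and *Pdhx*. These are 10 of 53084 genes in the table, and all 10 were among the 15075 genes with enough counts to be tested. RNA came from the muscle of male C57BL/6 mice (C57BL/6J for the knockout line in the study's methods) that were 6 weeks old and had been given standard chow, 3 wild-type (*Tarsl2*+/+) and 3 homozygous knockout (*Tarsl2*-/-) mice, with 1 library per mouse. *Tarsl2* encodes a protein similar to threonyl-tRNA synthetase, and the knockout allele lacks a genomic fragment with exon 3, removed by CRISPR/Cas9 in the whole animal. The muscle dissected, the feeding state at sampling and whether the mice were littermates were not given in the sources used here. If the groups differed in these respects, that could not be told apart from genotype. The p-values below set the genotype difference against the spread between mice and do not cover such differences.

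The PDH complex sits in the mitochondrial matrix and turns pyruvate into acetyl-CoA, the step that commits carbon from glucose to the citrate cycle. The kinases phosphorylate the E1 alpha subunit and switch the complex off, and the phosphatases remove the phosphate and switch it on again. In skeletal muscle, the kinase Pdk4 is known for its high expression in fasting, diabetes and high-fat feeding, when muscle burns fatty acids and spares glucose.

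The libraries held between 16176591 and 20123767 counts, so that 3 counts corresponded to between 0.146 and 0.187 CPM, the usual count relative to library size. Library sizes were adjusted by TMM, the trimmed mean of log ratios between libraries. *Tarsl2* itself fell from 27.7 ± 4.0 CPM in *Tarsl2*+/+ to 1.97 ± 0.231 CPM in *Tarsl2*-/- muscle (SD, n = 3 each, adjusted p = 6.45e-07 by edgeR's test). The sample records name a retinal extraction, but no library held more than 7 counts of any of 10 retinal markers, and the 8 muscle fibre markers summed to at least 35910 CPM in each.

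Of the set, *Pdk4* was also measured in the study by RT-qPCR, where it was reported as upregulated in *Tarsl2*-/- muscle. The primers show which exons that assay read. Both match the *Pdk4* transcript on the minus strand of chromosome 6, in coding sequence, and match no transcript of the other genes of the set. The forward primer lies in exon 6 (chr6:5491110-5491130, GRCm38) and the reverse primer in exon 7 of 11 (chr6:5489161-5489181), with a product of 112 bases. Both are written as ordered, with no part in capitals.
*Pdk4* forward: aagatgctctgcgaccagtat
*Pdk4* reverse: gaaggtgtgaaggaacgtaca

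Promoter sequences are shown for *Pdk4* and *Pdha1*, the genes of the set past the threshold of the test, and for *Pdk2*, the next kinase by p-value. They are RefSeq sequences of GRCm38.p6, on the strand of the gene, from 250 bases before the RefSeq start, and the *Pdk4* sequence ends where the annotated transcript begins. All 3 genes lie on the minus strand, at chr6:5496310-5496528 for *Pdk4*, chr11:95041372-95041621 for *Pdk2* and chrX:160138431-160138680 for *Pdha1*. Capitals mark matches, on either strand, to the letters AGGTCA (nuclear receptor half-site), GTAAACA (forkhead core), ACGTG (hypoxia response core), AGAACA (glucocorticoid half-site) and to those of the CCAAT box and of the TATA box with the letters TATAAA.
*Pdk4* promoter: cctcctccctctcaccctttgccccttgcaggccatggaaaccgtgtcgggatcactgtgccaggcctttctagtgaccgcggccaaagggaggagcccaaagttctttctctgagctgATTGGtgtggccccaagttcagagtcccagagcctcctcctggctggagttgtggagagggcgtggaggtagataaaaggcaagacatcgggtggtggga
*Pdk2* promoter: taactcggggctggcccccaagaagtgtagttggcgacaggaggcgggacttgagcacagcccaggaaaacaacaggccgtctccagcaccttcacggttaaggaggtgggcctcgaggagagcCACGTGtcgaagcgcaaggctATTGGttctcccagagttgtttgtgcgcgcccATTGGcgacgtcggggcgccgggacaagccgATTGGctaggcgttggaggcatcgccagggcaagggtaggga
*Pdha1* promoter: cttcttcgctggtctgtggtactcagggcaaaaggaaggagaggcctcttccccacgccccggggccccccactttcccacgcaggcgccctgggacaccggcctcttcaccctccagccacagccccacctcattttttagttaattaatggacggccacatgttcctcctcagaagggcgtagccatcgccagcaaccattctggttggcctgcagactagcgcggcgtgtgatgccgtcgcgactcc
The *Pdk4* window holds 1 match, a CCAAT box read on the opposite strand that begins 131 bases before the RefSeq start. The *Pdk2* window holds 3 CCAAT boxes on the opposite strand, 105, 73 and 42 bases before the start, and the palindrome CACGTG, which counts as an ACGTG match on both strands. No match was found in the *Pdha1* window. A second RefSeq promoter of *Pdk2* (chr11:95040876-95041125), which lies within the annotated gene and is not shown, also held no match. Of 32851 promoters of the same length, 33.8% held CCAAT, 16.6% ACGTG, 14.0% AGGTCA, 3.17% GTAAACA, 12.4% TATAAA and 16.1% AGAACA. The GC content of the full windows was 58.8% for *Pdk4*, 62.4% for *Pdk2* and 61.6% for *Pdha1*, against a median of 52.4% over all promoters. RefSeq promoters were found for 9 of the 10 genes.

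Between genotypes, the kinase *Pdk4* and the subunit gene *Pdha1* rose in *Tarsl2*-/- muscle, and no gene of the set fell. By the quasi-likelihood test of edgeR, adjusted by Benjamini-Hochberg over all tested genes, 2 of the 10 genes were higher at an adjusted p under 0.05 and 0 were lower, whereas 0.896% of all tested genes were called higher and 2.27% in either direction. The fitted log2 fold change (*Tarsl2*-/- over *Tarsl2*+/+) was above 0 for 7 genes and below 0 for 3. Its median was 0.29 over the 10 genes and 0.00253 over all tested genes. In 6 genes every *Tarsl2*-/- library was above every *Tarsl2*+/+ library, which held for 12.6% of all tested genes, and in the other 4 the genotypes overlapped. An unadjusted p under 0.05 was found for 7 of the 10 genes and for 19.8% of all tested genes. In an exact two-sided permutation test over the mice, the 6 genes without overlap gave p = 0.1, below which 3 mice against 3 cannot go. The median of the log2 fold changes was 0.37 over the 4 kinases, 0.27 over the 2 phosphatases and 0.25 over the 4 subunit genes.

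**Figure D1:**
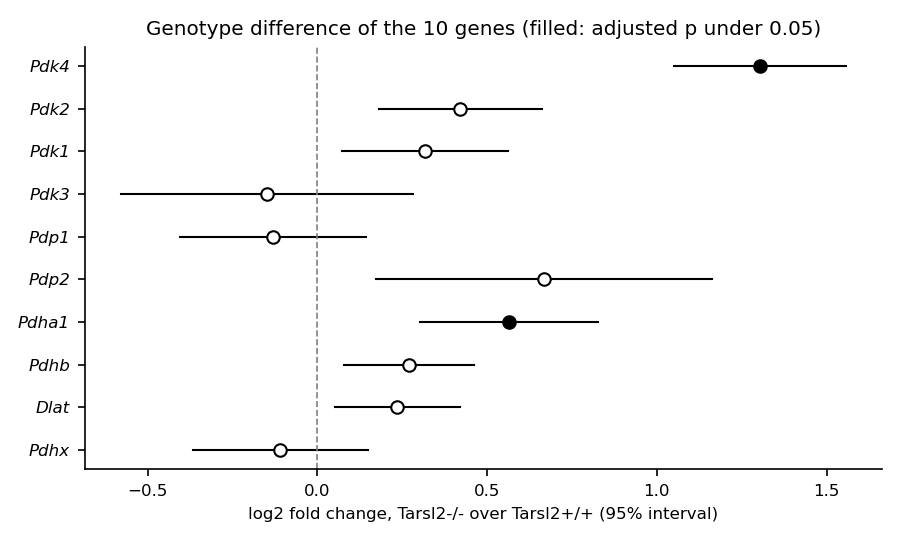
Log2 fold change (*Tarsl2*-/- over *Tarsl2*+/+, x axis) of each of the 10 genes, with the 95% interval of the edgeR fit as a line and a filled point where the adjusted p was under 0.05. *Pdk4* stands farthest to the right at 1.30, *Pdha1* is filled at 0.56, and the intervals of *Pdk3*, *Pdp1* and *Pdhx* cross 0.

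Among the kinases, *Pdk4* had the largest difference. It was counted 2050, 2272 and 2199 times in the *Tarsl2*+/+ mice 583, 584 and 595, and 6145, 5922 and 3985 times in the *Tarsl2*-/- mice 588, 591 and 589, the order used for all values below. After scaling, this was 119.8, 121 and 115 CPM against 343, 288 and 249 CPM. The *Tarsl2*+/+ mice were nearly alike, with a coefficient of variation of 2.38%, while the *Tarsl2*-/- mice spread by 16.1% and all lay above them. The mean rose from 119 ± 2.82 to 293 ± 47.2 CPM (SD, n = 3 each), a 2.47-fold difference with a 95% interval from 2.07 to 2.94. On the log2 scale this was 1.30 with a standard error of 0.12 (adjusted p = 0.000464 by edgeR), the 5th smallest p among 15075 genes. In bulk muscle, a change in the share of cells that express a gene and a change in its RNA per cell cannot be told apart. *Pdk4* stayed past the threshold in each of 13 alternative fits, with log2 fold changes from 1.13 to 1.41.

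*Pdk2* encodes the other main PDH kinase of muscle. Its level was 109, 141 and 114 CPM in *Tarsl2*+/+ and 155, 158 and 174 CPM in *Tarsl2*-/- muscle. The groups did not overlap, and mouse 584 was the *Tarsl2*+/+ mouse nearest to the *Tarsl2*-/- mice. The fitted log2 fold change was 0.42, with a 95% interval from 0.18 to 0.66, and was not past the threshold by edgeR's test (adjusted p = 0.0678). It was past it with DESeq2 (adjusted p = 0.012), without a filter on low counts (0.00321) and without mouse 584 (0.0163). *Pdk1*, a kinase known as a target of the hypoxia response, had 33.0, 34.3 and 26.4 CPM against 36.8, 37.8 and 42.3 CPM. The groups were again apart, but by little, and the log2 fold change was 0.32 ± 0.11 (standard error) with an adjusted p of 0.149. *Pdk3*, the kinase known mainly from testis and brain, was scarce, with between 42 and 73 counts per library. Its level of 3.27, 3.77 and 3.36 CPM against 3.18, 3.55 and 2.62 CPM overlapped between genotypes, and the interval of its log2 fold change ran from -0.58 to 0.28 (adjusted p = 0.724).

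**Figure D2:**
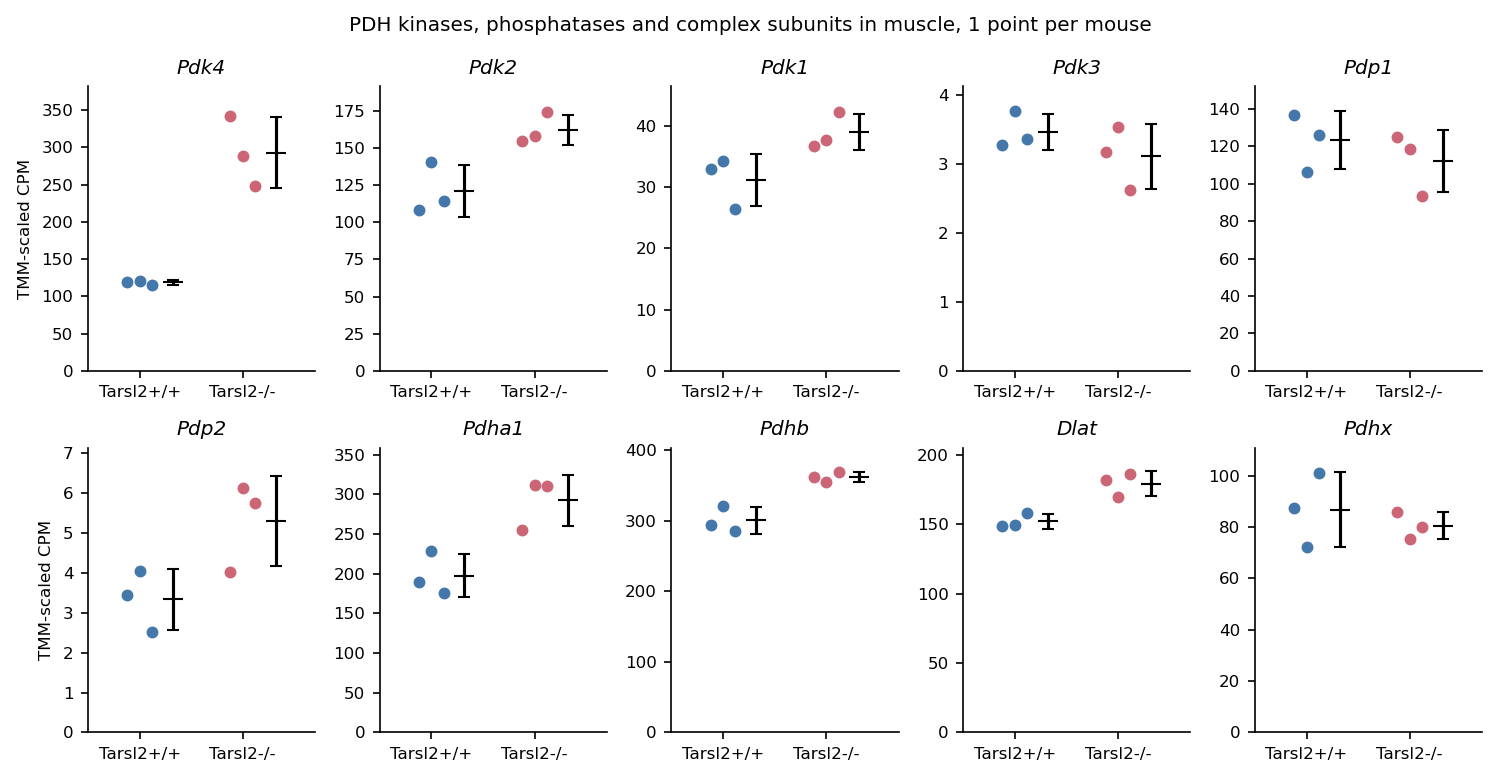
TMM-scaled CPM (y axis, from 0, with a scale of its own in each panel) of the 10 genes in 3 *Tarsl2*+/+ (blue) and 3 *Tarsl2*-/- (red) mice, 1 point per mouse in the order 583, 584, 595 and 588, 591, 589, with the mean and SD in black. The red points lie wholly above the blue points in 6 panels, with the widest gap for *Pdk4*, where blue lies between 115 and 121 CPM and red between 249 and 343 CPM.

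Ratios of *Pdk4* reads to those of the other kinases within a library do not depend on the scaling between libraries. They were chosen with the *Pdk4* difference known and hold the same reads, so they are not independent of it. For each read of *Pdk2* there were 1.10, 0.857 and 1.01 reads of *Pdk4* in *Tarsl2*+/+ and 2.21, 1.82 and 1.43 in *Tarsl2*-/- muscle. In the *Tarsl2*+/+ mice the genes had about equal reads, and in every *Tarsl2*-/- mouse *Pdk4* had more. The ratio was 1.82-fold higher in *Tarsl2*-/- muscle, the ratio of *Pdk4* to *Pdk1* 1.96-fold and that of *Pdk4* to *Pdk3* 2.74-fold. None of the 3 ratios overlapped between genotypes (exact two-sided permutation test, p = 0.1 for each, unadjusted and the smallest possible). Over the fits that left out 1 mouse, the log2 difference of the ratio to *Pdk2* lay between 0.71 and 1.03, lowest without mouse 588 and highest without mouse 589.

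To compare kinases with each other, CPM were divided by the length of each gene's merged exons in kb. On this scale *Pdk2* and *Pdk4* together made up most of the kinase mRNA, and *Pdk1* and *Pdk3* little. *Pdk4* accounted for 46.1%, 40.5% and 44.7% of the summed kinase level per kb in *Tarsl2*+/+ and for 64.0%, 59.4% and 53.5% in *Tarsl2*-/- muscle. The share of *Pdk2* was 49.3% ± 3.08 in *Tarsl2*+/+ and 36.6% ± 4.75 in *Tarsl2*-/- muscle (SD, n = 3 each), although its own level was not lower there. *Pdk1* held 5.18% and 3.58% of the sum, and *Pdk3* 1.75% and 0.863%. The summed kinase level was 77.5 ± 6.36 CPM per kb in *Tarsl2*+/+ and 141 ± 10.4 in *Tarsl2*-/- muscle, while the summed phosphatase level was 27.9 ± 3.37 and 25.9 ± 3.58 CPM per kb. The kinase sum was thus 2.39, 3.49 and 2.59 times the phosphatase sum in *Tarsl2*+/+ mice, and 5.36, 5.06 and 6.08 times in *Tarsl2*-/- mice. *Pdk4* itself was at 33.8 and 83.4 CPM per kb, and *Pdp1*, the main part of the phosphatase sum, at 27.3 and 24.9. The ratio of the sums is therefore not independent of the *Pdk4* difference. All these values are mRNA levels, and neither protein nor phosphorylation of the complex was measured here. With the length of the longest transcript in place of merged exons, the *Pdk4* share was 35.8% and 50.7%.

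**Figure D3:**
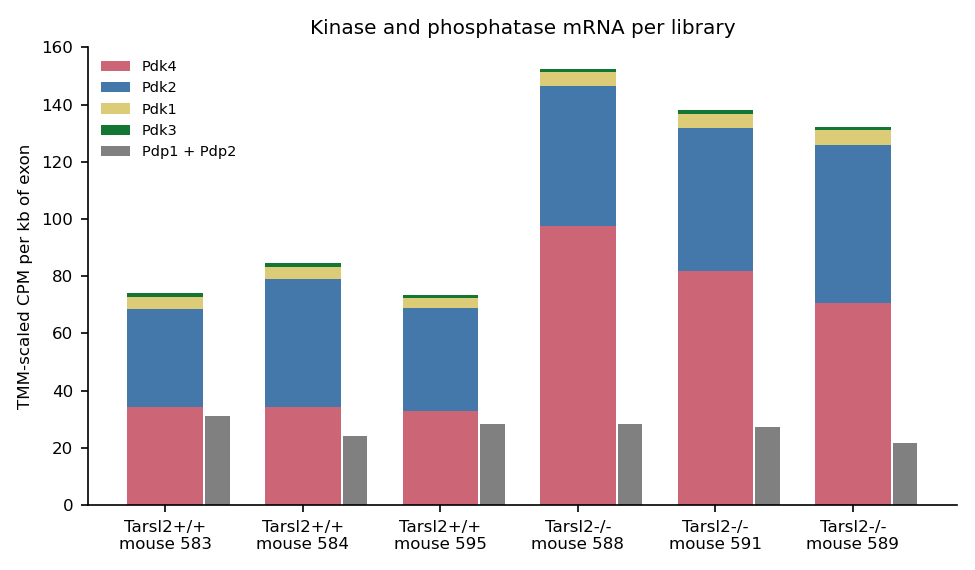
Level per kb of exon (TMM-scaled CPM per kb, y axis) of the kinases as stacked bars and of *Pdp1* and *Pdp2* together as grey bars, 1 pair of bars per mouse. The *Pdk4* segment widens in the *Tarsl2*-/- mice, whose kinase bars reach between 132 and 153, against 73.6 to 84.8 in the *Tarsl2*+/+ mice, while the grey bars lie between 21.8 and 31.0 in all mice.

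The phosphatases did not pass the test in either direction. *Pdp1*, which encodes the calcium-stimulated phosphatase of muscle, was at 137, 106 and 126 CPM in *Tarsl2*+/+ and 125, 118 and 93.6 CPM in *Tarsl2*-/- muscle. The groups overlapped, and the log2 fold change of -0.13 had a 95% interval from -0.41 to 0.14 (adjusted p = 0.61). *Pdp2*, the isoform known from liver and fat, was counted between 48 and 126 times per library. It was at 3.45, 4.04 and 2.52 CPM against 4.01, 6.12 and 5.74 CPM, so that *Tarsl2*-/- mouse 588 lay within the *Tarsl2*+/+ range. Its fitted log2 fold change, 0.67 ± 0.23 (standard error), was larger than that of *Pdha1*, but its interval from 0.17 to 1.16 was wide and the adjusted p was 0.134. Of the alternatives, only the fit without a filter on low counts put it past the threshold (adjusted p = 0.025). The ratio of *Pdk4* to *Pdp1* reads, examined after the data were seen, was 0.876, 1.14 and 0.915 against 2.74, 2.43 and 2.66 (exact two-sided permutation test, p = 0.1).

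Of the subunit genes, *Pdha1* encodes the E1 alpha subunit, which carries the serines that the kinases and phosphatases act on. It was counted 3238, 4299 and 3343 times in *Tarsl2*+/+ and 4576, 6409 and 4982 times in *Tarsl2*-/- muscle, which gave 189, 228 and 176 CPM against 255, 312 and 311 CPM. The groups did not overlap, with mouse 584 highest among the *Tarsl2*+/+ and mouse 588 lowest among the *Tarsl2*-/- mice. The mean rose from 198 ± 27.4 to 292 ± 32.3 CPM (SD, n = 3 each), a 1.48-fold difference with a 95% interval from 1.23 to 1.77. The log2 fold change, 0.56 ± 0.12 (standard error), had an adjusted p of 0.0347 by edgeR's test. That call was lost when mouse 583 (adjusted p = 0.144), 595 (0.121), 591 (0.114) or 589 (0.117) was left out, with log2 fold changes from 0.48 to 0.53.

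The other subunit genes were not past the threshold. *Pdhb*, which encodes the partner subunit E1 beta, was at 295, 322 and 286 CPM against 363, 355 and 369.6 CPM. *Dlat*, the gene of the E2 core that carries the lipoyl arms, was at 149, 149 and 158 CPM against 182, 169 and 186 CPM. In both genes every *Tarsl2*-/- mouse lay above every *Tarsl2*+/+ mouse. The log2 fold change was 0.27 ± 0.09 (standard error) for *Pdhb*, with an adjusted p of 0.125, and 0.24 ± 0.08 for *Dlat*, with an adjusted p of 0.152. *Pdhx*, whose product anchors the E3 enzyme to the core, was at 87.2, 72.0 and 101 CPM against 85.9, 75.3 and 80.2 CPM. All 3 *Tarsl2*-/- values of *Pdhx* lay within the *Tarsl2*+/+ range (log2 fold change -0.11 ± 0.12, standard error, adjusted p = 0.658), and without mouse 595 its log2 fold change turned to 0.0137. The subunits of one complex thus had log2 fold changes from -0.11 to 0.56. Ratios of *Pdha1* reads to those of *Pdhb*, *Dlat* and *Pdhx*, examined after the data were seen, overlapped between genotypes (log2 differences of 0.30, 0.33 and 0.66, exact two-sided permutation test, p = 0.2 for each, unadjusted).

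The order of the genes by level per kb differed between genotypes mainly in the place of *Pdk4*. In *Tarsl2*+/+ muscle the levels per kb of exon were 77.9 ± 4.82 CPM for *Pdhb*, 53.0 ± 7.35 for *Pdha1*, 38.3 ± 5.47 for *Pdk2*, 33.8 ± 0.805 for *Pdk4* and 31.1 ± 1.09 for *Dlat* (SD, n = 3). *Pdp1* followed at 27.3 ± 3.44 and *Pdhx* at 22.1 ± 3.69 CPM per kb, and *Pdk1* (4.02), *Pdk3* (1.35) and *Pdp2* (0.586) were far below. Of neighbours in that order, *Pdk2* and *Pdk4* overlapped between mice, as did *Pdp1* and *Pdhx*. In *Tarsl2*-/- muscle *Pdk4* stood second, at 83.4 ± 13.5 CPM per kb, between *Pdhb* (93.8 ± 1.95) and *Pdha1* (78.3 ± 8.66), and its range of 70.8 to 97.6 overlapped with both. *Pdk2* came next at 51.3 ± 3.24 CPM per kb, below the range of these 3 genes. These places and overlaps depend on the length used. The longest transcript of *Pdk4* has 3484 bases, near the 3511 bases of its merged exons. For *Pdhb* it has 2377 against 3861 bases, for *Pdk2* 2246 against 3163 and for *Pdha1* 2848 against 3734. For *Dlat* it has 4035 against 4886 bases, and for *Pdhx* 2506 against 3930. Division by the longest transcript would thus put all of these genes higher relative to *Pdk4*. By their means, *Pdha1* would then stand above *Pdk4* in *Tarsl2*-/- muscle, and *Dlat* and *Pdhx* above it in *Tarsl2*+/+ muscle. The place of *Pdk4* between *Pdhb* and *Pdha1* therefore holds for merged exons only.

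Reads of related genes could be confused in counting, so the transcripts were compared. The coding sequences of the kinases were between 64.8% (*Pdk1* with *Pdk4*) and 69.2% identical (*Pdk1* with *Pdk2*), and those of the phosphatases 59.2%. The longest run of bases shared exactly by any pair of kinase transcripts was 29, between *Pdk3* and *Pdk4*. Of the 10 genes, *Pdha1* (chromosome X, 160122209 to 160138413 of GRCm38) shares 603 of its 3734 exon bases (16.1%) with *Map3k15* on the opposite strand, which had at most 11 counts in any library. *Pdk2* (chromosome 11, 95026258 to 95041354) overlaps the antisense gene *Gm11513*, which had 0 counts, but the 2 genes share 0 exon bases. *Pdk4* (chromosome 6, 5483351 to 5496309) overlaps no annotated gene.

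Genes around the complex were examined as 6 lists. Of the rest of the complex and its phosphatase, the E3 gene *Dld* differed by 0.10 on the log2 scale (adjusted p = 0.649) and *Pdpr*, the regulatory subunit of the phosphatase, 0.48 (adjusted p = 0.198), while the testis gene *Pdha2* had 0 counts in every library. For the synthesis and attachment of lipoate, the cofactor of E2, 0 of 8 tested genes passed in either direction, with a median of 0.05. The smallest p-values in that list were those of *Lias*, the lipoate synthase (0.19, adjusted p = 0.248), and *Ndufab1*, the mitochondrial acyl carrier protein (-0.23, adjusted p = 0.294). For thiamine, the vitamin of E1, 0 of 3 tested genes passed, and the transporter gene *Slc19a2* differed by 0.33 (adjusted p = 0.237).

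Of the 8 genes of pyruvate supply and fate, 1 was higher and 0 lower. This was *Ldhb*, the lactate dehydrogenase subunit known from heart and oxidative fibres, at 64.6 ± 7.19 against 97.6 ± 19.7 CPM (log2 fold change 0.59 ± 0.14, standard error, adjusted p = 0.0498 by edgeR's test). *Gpt*, an alanine aminotransferase gene, had a larger log2 fold change of 0.70 without overlap, but was not past the threshold (adjusted p = 0.0665), and *Cs*, the citrate synthase gene, had 0.38 (adjusted p = 0.122). *Ldha*, the glycolytic counterpart of *Ldhb*, differed by 0.06 (adjusted p = 0.789), and the mitochondrial pyruvate carrier genes *Mpc1* and *Mpc2* had 0.20 and -0.20, with overlap between genotypes in all 3. In this list 6 of 8 genes lay above 0, with a median of 0.29. Of 8 genes of the sister dehydrogenase complexes and their regulators, *Bckdhb*, an E1 subunit for branched-chain keto acids, was higher (0.63, adjusted p = 0.0418) and 0 were lower. *Dbt*, the E2 of that complex, had 0.37 (adjusted p = 0.0827), and *Bckdk*, the kinase that switches it off and a relative of the PDH kinases, had -0.01 (adjusted p = 0.979). Thus 7 of these 8 genes lay above 0, with a median of 0.36.

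Transcription factors that are known to act on PDH kinase genes were examined as well. Of 10 such genes, *Ppara*, the fatty acid-sensing nuclear receptor, was higher and 0 were lower. It was scarce, at 1.06 ± 0.263 against 3.25 ± 0.766 CPM (SD, n = 3 each). Its log2 fold change was 1.59 ± 0.28 (standard error, adjusted p = 0.018 by edgeR's test). Its coactivator gene *Ppargc1a* had 0.58 (adjusted p = 0.0607), *Esrra* 0.35 (adjusted p = 0.0678) and *Ppard*, the related receptor, 0.36 (adjusted p = 0.102). The study reported *Ppara* and *Ppargc1a* (there named *Pgc1a*) as upregulated by RT-qPCR. The forkhead gene *Foxo3* had 0.26 without overlap (adjusted p = 0.166). *Foxo1*, *Nr3c1*, the glucocorticoid receptor gene, and *Rxra* had log2 fold changes between -0.02 and 0.00, and *Hif1a* had -0.16 (adjusted p = 0.441). In all, 7 of the 10 genes lay above 0, with a median of 0.19. Binding of these factors was not measured here.

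**Figure D4:**
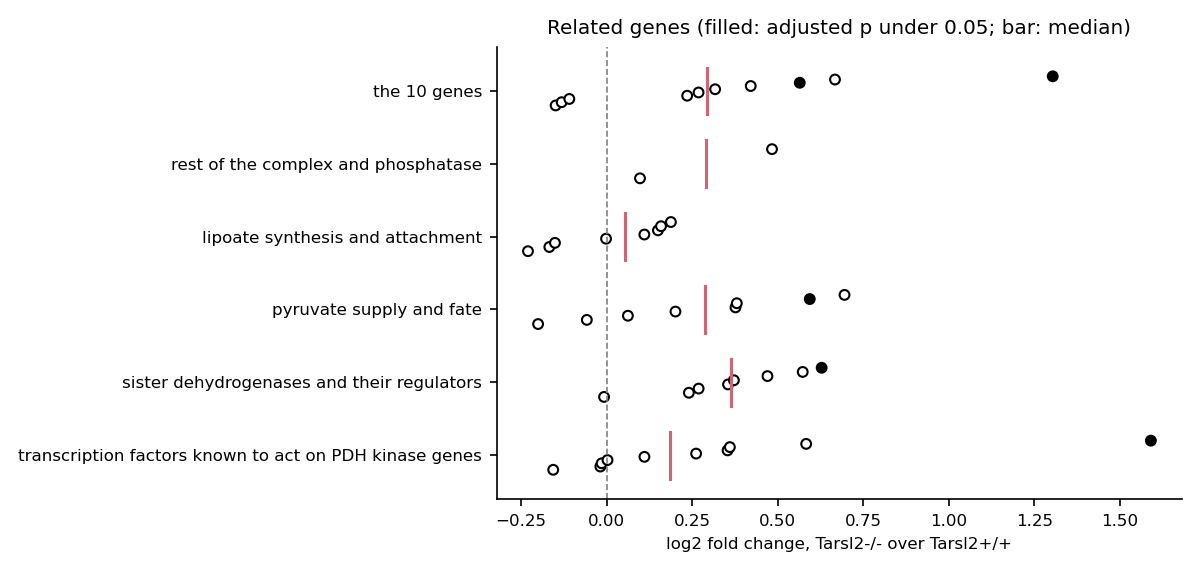
Log2 fold change (*Tarsl2*-/- over *Tarsl2*+/+, x axis) of the tested genes in the PDH set and in 5 of the related lists (thiamine not drawn), 1 point per gene, filled where the adjusted p was under 0.05, with the list median as a red bar. *Pdk4* (1.30) and *Ppara* (1.59) are the points farthest to the right, and the lipoate list lies around 0.

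The genes whose log2 CPM followed *Pdk4* most closely over the 6 libraries were *Habp4*, *Rbm17*, *Idh3a*, *Kiz* and *Actn3*, with Pearson's r from 0.995 to 0.998 among 12448 genes. For *Pdha1* they were *Ptgr2*, *Nfkbib*, *Acadvl*, *Nfe2l1* and *Usp33*, with r from 0.992 to 0.997. With 6 libraries in 2 genotypes, such values hold both the genotype difference and the order of the mice, and they are given as a description. Of these genes, *Actn3*, the actinin of fast fibres, and *Acadvl*, an enzyme of fatty acid oxidation, passed the genotype test, at 0.69 for *Actn3* (adjusted p = 0.00807) and 0.77 for *Acadvl* (adjusted p = 0.0285) on the log2 scale. The others had log2 fold changes from 0.20 to 0.61, smaller than that of *Pdk4*.

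Markers of muscle fibres and of other cells were set beside these results. The 8 muscle fibre markers summed to between 35910 and 39150 CPM in *Tarsl2*+/+ and between 40290 and 46370 CPM in *Tarsl2*-/- mice, without overlap. Called higher were 3 of them (*Ckm*, *Des* and *Myh1*, with log2 fold changes of 0.49, 0.50 and 0.59). The largest part of the sum was *Acta1*, with means of 21680 and 23820 CPM, which overlapped between genotypes and was not called (adjusted p = 0.568 by edgeR's test). Of the 8 markers, 6 lay above 0 and 2 below. When the libraries were scaled to these markers instead, a choice made after the data were seen, the median of all tested genes moved to -0.16 and 1044 genes (6.93%) were called, 47 higher and 997 lower, against 135 higher and 207 lower with TMM. *Pdk4* was then at a log2 fold change of 1.13 (adjusted p = 0.000254) and was the one gene of the set past the threshold, since *Pdha1* had 0.40 (adjusted p = 0.125) and *Pdk2* 0.25 (adjusted p = 0.295). The signs of all 10 genes were as before. Of 10 slow fibre markers, 0 were called and 9 were above 0. Their sum ranged from 1198 to 2021 CPM in *Tarsl2*+/+ and from 1607 to 2380 CPM in *Tarsl2*-/- mice. Of 9 tested fast fibre markers, 6 were above 0 and 3 below. *Actn3* was called higher. *Atp2a1* was higher in every *Tarsl2*-/- than in every *Tarsl2*+/+ library, but was not called (log2 fold change 0.57, adjusted p = 0.0659 by edgeR's test). *Pvalb* was lower in every *Tarsl2*-/- than in every *Tarsl2*+/+ library, and was not called either (log2 fold change -0.23, adjusted p = 0.347). The sum of the fast fibre list ranged from 113300 to 124500 and from 120700 to 134700 CPM. The fast fibre gene *Tnnc2* had at most 4 counts in any library and was not tested. The other troponin genes of that list, *Tnni2* and *Tnnt3*, averaged 10340 and 13230 CPM in *Tarsl2*+/+ muscle. Whether the low *Tnnc2* counts came from the way reads were counted was not tested. Mouse 589 had the highest slow fibre sum and the lowest *Pdk4* level of the *Tarsl2*-/- mice.

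Among markers of other cells, 5 of 8 immune cell genes were called lower, against 207 of 15075 tested genes. The log2 fold change was below 0 for all 8. The immune cell list summed to 1212 to 1407 CPM in *Tarsl2*+/+ and 663 to 854 CPM in *Tarsl2*-/- mice. Of 6 endothelial genes, *Cdh5* was called lower and all 6 lay below 0. The endothelial list summed to 181 to 197 and 143 to 178 CPM. Of 6 erythrocyte, 7 adipocyte, 6 fibroblast and 4 tested Schwann cell genes, 0 were called. All 6 erythrocyte and all 6 fibroblast genes lay below 0. Of the adipocyte genes, 6 lay above 0 and 1 below, and of the Schwann cell genes 2 and 2. The adipocyte sum was 2740 to 4162 CPM in *Tarsl2*+/+ mice, 3203 and 3586 CPM in mice 588 and 591, and 7088 CPM in mouse 589. Erythrocyte genes summed to 4748 to 10390 and 4166 to 4536 CPM, and fibroblast genes to 9911 to 11910 and 8411 to 9644 CPM. Schwann cell genes summed to 170 to 185 and 127 to 216 CPM. No marker of these lists was at 0 in all libraries. Without mouse 589, the log2 fold change of *Pdk4* was 1.41 (adjusted p = 0.000395). The part of the other marker differences in the results for the PDH genes was not tested.

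**Figure D5:**
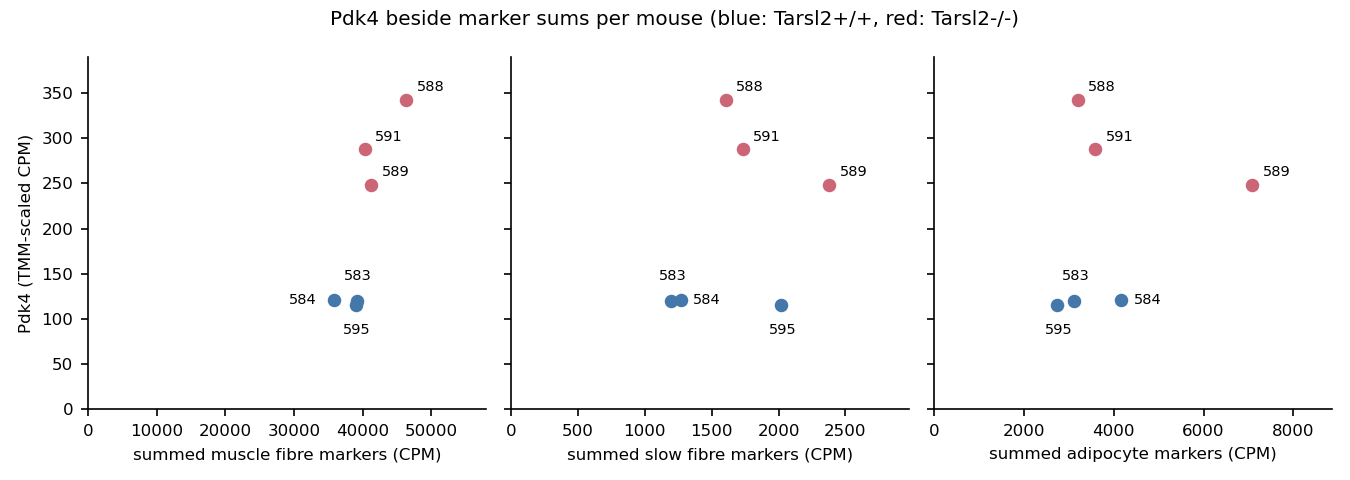
*Pdk4* (TMM-scaled CPM, y axis) against the summed CPM of muscle fibre, slow fibre and adipocyte markers (x axes), 1 point per mouse, blue for *Tarsl2*+/+ and red for *Tarsl2*-/-. The red points lie above the blue ones in each panel, and mouse 589, with 7088 CPM of adipocyte markers, has the lowest red point at 249 CPM.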

How the data were processed

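RNA-seq libraries of the muscle of 3 *Tarsl2*+/+ and 3 *Tarsl2*-/- mice were analysed from the table that the authors deposited, which holds whole-number counts of reads per gene without normalization. The study's methods describe a stranded mRNA kit, paired-end reads and mapping to mm10 (GRCm38) with HISAT2, whereas the submitters' processing notes name another build and Bowtie 0.12.2. The counting tool, its annotation and its use of strand are not given in the sources used here. Coordinates are those of the table and were the same in GENCODE vM21 for all 10 genes.

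Samples were grouped by their titles. The filterByExpr function of edgeR 4.0.16 (R 4.3.3) removed genes of low count (settings of 10 per library and 15 in total). After TMM scaling, glmQLFit and glmQLFTest were run with genotype alone in the model, with Benjamini-Hochberg adjustment over 15075 genes and a threshold of 0.05. The study itself used DESeq2. The common biological coefficient of variation was 12.1%. Ratios of reads used a pseudocount of 0.5. No molecular identifiers were read, so a floor of 3 counts reflects counting error alone. Pairs of libraries of one genotype differed by a chi-square of at least 13.1 per gene, so none was counted as a duplicate.

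The procedure was tested on data simulated from these libraries 3 times, with a true log2 difference of 1 in 200 genes. Among 14866 to 14882 genes, edgeR recovered between 74% and 79.6% of the changed genes, and 6.37% to 8.81% of its calls were on unchanged genes. The genes and lists were chosen with earlier results of these data known. The genes named were the 10 genes, *Tarsl2*, those past the threshold in each related list or otherwise the 2 with the smallest p, and the 5 genes with the highest correlation to *Pdk4* and *Pdha1* (mean of at least 1 log2 CPM). *Gpt*, *Cs*, *Ldha*, *Mpc1*, *Mpc2*, *Dbt*, *Bckdk*, the factors other than *Ppara*, and single markers were picked with their values in view. A result for 1 gene of the thiamine list is not reported here. Alternatives were DESeq2 1.42.0, limma-voom (limma 3.58.1), other scalings, other filters, a pseudocount of 5, transcript length and each library left out in turn.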

Additional observations from a re-analysis of the deposited data

How the results depend on the processing

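No paired analysis was possible, because the sources used here do not say which of the mice, if any, were littermates. The number of genes called among all tested genes, 342 with edgeR, was 719 with DESeq2 (310 higher and 409 lower), 1437 without a filter on low counts (611 higher and 826 lower) and 1044 when scaled to the muscle fibre markers (47 higher and 997 lower). With each mouse left out in turn it ranged from 81 (without mouse 583) to 625 (without mouse 584), with 96 without mouse 595, 187 without 588, 142 without 591 and 126 without 589. Limma-voom, RLE and upper quartile scaling and at least 10 counts in every library gave between 318 and 363. Of the 10 PDH genes, 2 were called with edgeR, 3 with DESeq2, 4 without the filter, 1 when scaled to the fibre markers and between 1 and 3 with each mouse left out. *Pdk4* was called in 13 of 13 alternatives, *Pdha1* in 8, *Pdk2* in 3 and *Pdp2* in 1, and the other 6 genes in 0. *Pdhx*, at -0.11 with all mice, ranged from -0.23 (without mouse 584) to 0.0137 (without mouse 595) with each mouse left out and was -0.27 when scaled to the fibre markers, and no other gene of the set changed sign. With each mouse left out, the log2 differences of the ratio of *Pdk4* to *Pdk2*, *Pdk1* and *Pdk3* ranged from 0.71 to 1.03, from 0.81 to 1.14 and from 1.35 to 1.56. The difference in the *Pdk4* share of the kinase level, 15.2 percentage points, ranged from 12.7 to 17.9. The cause of these differences was not tested. Genes such as *Pdk3* and *Pdp2*, with at most 126 counts per library, were measured less precisely, with standard errors of 0.20 and 0.23 against 0.12 for *Pdk4*.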
